A study of Mus musculus with 6 samples.

Results

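The cytosolic ribosomal protein genes encode the protein parts of the ribosome that works outside mitochondria. They were chosen by name: protein-coding rows called Rpl or Rps with a number, Rplp0 to Rplp2, or Rpsa, without the S6 kinases and Rps19bp1. The rule found 94 of the 29659 genes in the table. Of these, 83 had canonical or paralog names, 32 of the small subunit and 51 of the large subunit, and 11 had pseudogene or retrogene names although they were annotated as protein-coding. The question put to the set was whether Rps18 and Rpl21 stand alone among genes that otherwise move together. Those 2 genes were selected on the difference between the 2 groups, so every difference between the groups given for the set is a description, and the counts past a threshold lend support to nothing.

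RNA was sequenced from the lateral ganglionic eminence (LGE), the embryonic ventral forebrain region that gives rise to striatal projection neurons, of mice at embryonic day 16.5. The Zfhx3-CKO group (3 libraries) had the genotype Dlx5/6-Cre; Zfhx3F/F, and the control group (3 libraries) had Dlx5/6-Cre alone, both labelled C57BL/6. The Cre transgene, which both groups carry, is active in the ganglionic eminences and not in every cell of the dissected tissue. Nothing in the labels says that the libraries came from separate animals, so each test weighs a difference against the variation among libraries, part or all of which may be technical.

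The libraries held 18960574 to 20311799 counts in the Zfhx3-CKO group and 15938590 to 16753355 in the control group. Zfhx3 itself had 98.8, 87.4 and 99.4 CPM (counts scaled to a common library total) in the Zfhx3-CKO libraries, against 134, 135 and 101 CPM in the control libraries, over the whole gene including exons that a floxed allele may keep. Xist averaged 2965 CPM in the Zfhx3-CKO libraries and 0.468 CPM in the control libraries, and the 4 Y-linked genes examined were the other way round, so sex and genotype cannot be told apart. Of 16 LGE and striatal markers, 6 passed the test as lower and 1 as higher, where 3.49% and 3.87% of all tested genes did. The summed CPM of 12 cortical excitatory neuron markers was 208, 53.9 and 295 for the Zfhx3-CKO libraries in replicate order, against 55.0 to 58.4 in the control libraries. In whole tissue, fewer cells of a type and less RNA per cell cannot be told apart.

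Ribosomal proteins are made in near-equal amounts, and cells match their supply to growth largely through translation: most of their mRNAs begin with a 5′ terminal oligopyrimidine (TOP) motif, a cytosine followed by a run of pyrimidines, through which mTOR signalling and the RNA-binding protein Larp1 act. A few members have roles outside the ribosome; Rpl5 and Rpl11, with 5S ribosomal RNA, can bind Mdm2 and stabilise p53. Because the mRNAs are short and abundant, mammalian genomes hold many intronless copies of them made by reverse transcription, and some copies match the coding sequence of their parent gene nearly base for base.

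That similarity bears on every count below. The table held 813 further rows read as copies of the members from their name or best protein match, and 76 of the 83 canonical or paralog genes had at least 1. Each coding sequence was divided into all overlapping stretches of 50 bases (50-mers) and searched on both strands in every other annotated transcript of GENCODE vM21. A median of 88.9% of a member's 50-mers also occurred in another gene, and for 26 of the 83 all did. The median was 0% for 77 mitochondrial ribosomal protein genes and 30.7% for 17 other protein-coding genes with TOP mRNAs. The submitters' protocol names a kit that does not mark strand. The sources used here do not give how reads with more than 1 possible origin were counted.

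The following 60-base stretches, from the coding sequences of GENCODE vM21 (GRCm38), show how little separates a member from the copy with which its counts traded places or moved. Capitals mark the bases that differ within each pair. Of each pair the stretch with the most differences is shown, so the rest of the sequence is as similar or more so.
Rpl26: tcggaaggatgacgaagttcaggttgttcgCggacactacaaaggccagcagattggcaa
Gm15772: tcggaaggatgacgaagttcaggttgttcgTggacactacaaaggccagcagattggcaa
Rpl34: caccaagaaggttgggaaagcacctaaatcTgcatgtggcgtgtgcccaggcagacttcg
Rpl34-ps1: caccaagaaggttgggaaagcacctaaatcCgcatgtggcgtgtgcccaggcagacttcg
Rpsa: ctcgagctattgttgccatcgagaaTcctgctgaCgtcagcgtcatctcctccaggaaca
Rpsa-ps10: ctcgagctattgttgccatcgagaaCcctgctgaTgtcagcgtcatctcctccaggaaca
Rps18: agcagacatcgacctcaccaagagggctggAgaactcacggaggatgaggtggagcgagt
AL607105.1: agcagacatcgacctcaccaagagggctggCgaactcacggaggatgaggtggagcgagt
Rpl21: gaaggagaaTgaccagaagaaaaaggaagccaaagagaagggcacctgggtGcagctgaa
Rpl21-ps15: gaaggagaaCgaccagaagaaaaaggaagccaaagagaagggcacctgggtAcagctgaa

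On the deposited coordinates, Rps18 lies at chr17:33951999-33956001 on the minus strand and its copy AL607105.1, annotated as protein-coding, at chr13:28257528-28258134. Rpl21 lies at chr5:146832890-146837032 on the plus strand and the processed pseudogene Rpl21-ps15 at chrX:151215167-151215649. Rpl26 (chr11:68901583-68906989), Rpl34 (chr3:130726831-130730398) and Rpsa (chr9:120127689-120132369) have the processed pseudogenes Gm15772 (chr5:3236431-3236868), Rpl34-ps1 (chr6:71124610-71124963) and Rpsa-ps10 (chr3:150072658-150073542). Over the aligned coding sequence, AL607105.1 was 99.35% identical to Rps18, Rpl21-ps15 was 99.38% identical to Rpl21, and Rpsa-ps10 was 99.32% identical to Rpsa.

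As a set, the members took up nearly the same part of the RNA in both groups. Their counts made up 1.999%, 2.12% and 1.88% of all counts in the Zfhx3-CKO libraries, against 1.83%, 1.87% and 2.06% in the control libraries. The ranges overlapped. Of the 94 members, 88 passed the filter on low counts. Their median log2 fold change of Zfhx3-CKO over control was 0.07, with quartiles of -0.13 and 0.20, beside a median of 0.00 over all 16551 tested genes. For 57 of the 88 it lay between -0.25 and 0.25.

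A minority of rows lay far from that centre. With edgeR's quasi-likelihood test and Benjamini-Hochberg adjustment over all tested genes, 9 of the 88 members were higher at an adjusted p under 0.05, where 3.87% of all tested genes were, and 10 were lower, where 3.49% of all were. Leaving out Zfhx3-CKO library 3 raised the number higher to 14. Leaving out control library 1 left 5 higher and 4 lower, and leaving out control library 2 left 5 and 5. The number of genes called over the whole table also varied widely among these fits, so such counts say nothing about the members alone. Among the 79 tested members with canonical or paralog names, 8 were higher and 8 lower. The SD of the log2 fold change over those 79 was 0.75 and the interquartile range 0.28, against an SD of 0.23 and an interquartile range of 0.29 over 77 mitochondrial ribosomal protein genes. The middle of both sets was thus of similar width, and the tails of the cytosolic set were longer.

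**Figure D1:**
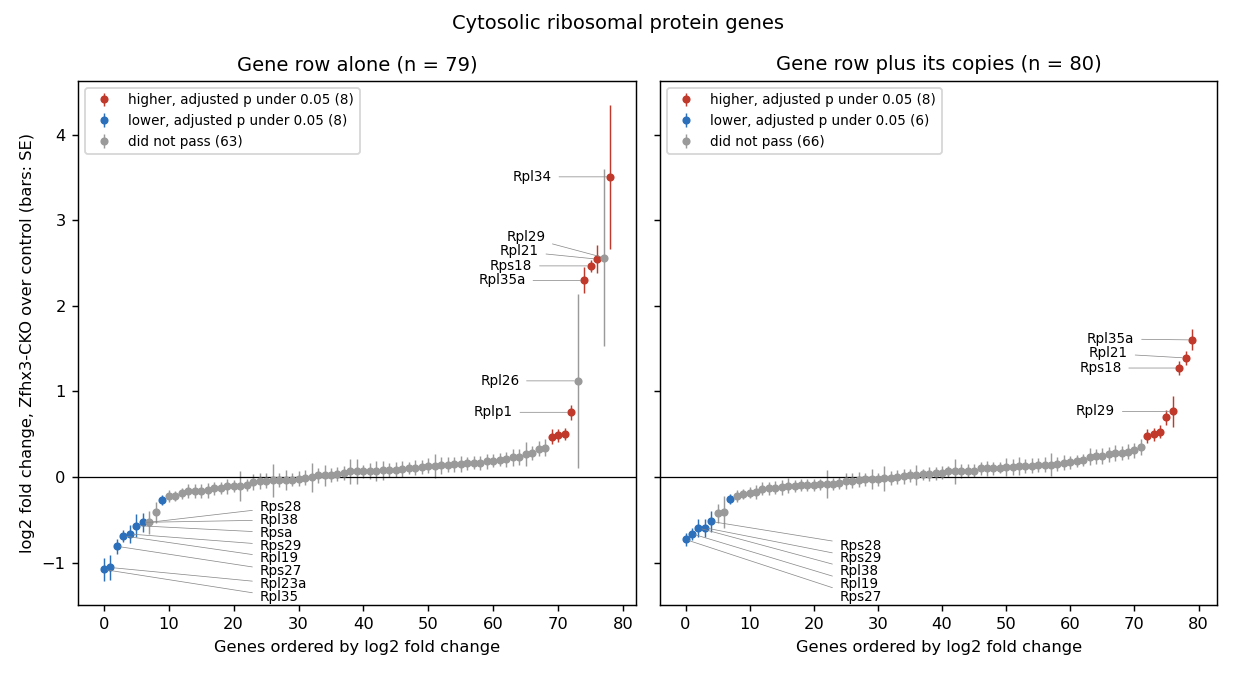
Log2 fold change of Zfhx3-CKO over control with its SE for cytosolic ribosomal protein genes with canonical or paralog names, ordered by size, for each gene's own row (left, 79 genes) and for the row summed with its annotated copies (right, 80 genes). Most points lie near 0 in both panels; on the left Rpl34, Rpl29, Rpl21, Rps18, Rpl35a and Rpl26 lie above 1, and on the right Rpl35a, Rpl21 and Rps18 do.

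Rps18, a protein of the head of the small subunit, had 126, 131 and 121 CPM in the Zfhx3-CKO libraries, against 22.5, 22.6 and 23.2 CPM in the control libraries. Rpl21, a large-subunit protein, had 64.4, 44.8 and 65.8 CPM in the Zfhx3-CKO libraries, against 9.74, 10.7 and 9.58 CPM in the control libraries. All 3 Zfhx3-CKO libraries were far above all 3 control libraries for both genes. The log2 fold change was 2.47 ± 0.07 (SE) for Rps18 and 2.55 ± 0.16 (SE) for Rpl21.

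They were not alone. Rpl35a, a large-subunit protein whose human gene is mutated in some families with Diamond-Blackfan anaemia, had 76.8, 70.0 and 102 CPM in the Zfhx3-CKO libraries, against 16.3, 15.5 and 18.7 CPM in the control libraries. Its groups were as clearly apart, and its log2 fold change was 2.30 ± 0.15 (SE). Of 122 genes marked significant in the authors' deposited table, the members are Rps18, Rpl21 and Rpl35a, with log2 fold changes of 2.35, 2.22 and 2.04.

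The copies of these 3 genes did not offset the difference. Summed with its 5 copies, Rps18 had 160, 177 and 160 CPM in the Zfhx3-CKO libraries, against 63.8, 67.2 and 75.3 CPM in the control libraries. Within that sum AL607105.1 went the other way, with 11.9, 12.7 and 13.2 CPM in the Zfhx3-CKO libraries and 19.5, 23.3 and 27.5 CPM in the control libraries, and Rps18-ps3 overlapped between the groups, with 20.3 to 32.3 CPM in the Zfhx3-CKO libraries and 20.4 to 24.01 CPM in the control libraries. The Rps18 row held 74.1% to 79.1% of the sum in the Zfhx3-CKO libraries and 30.8% to 35.3% in the control libraries.

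Of the 9 Rpl21 copies with at least 1 CPM on average, 6 were higher in Zfhx3-CKO, where 3.87% of all tested genes were, and 3 did not pass. Rpl21-ps8 reached 1 CPM only through the Zfhx3-CKO libraries, with 7.25, 4.45 and 8.05 CPM there. It had 0.12, 0.126 and 0.18 CPM in the control libraries. The copies are close in sequence to Rpl21, so their calls are not separate from that of Rpl21. Rpl21-ps15 had 59.0, 39.8 and 54.4 CPM in the Zfhx3-CKO libraries, against 11.1, 10.3 and 11.3 CPM in the control libraries. Library 2 was the lowest of the Zfhx3-CKO libraries both for Rpl21 and for this copy. The copy AC110377.1 (chr12:86845778-86846467) had 114, 113 and 94.4 CPM in the Zfhx3-CKO libraries, against 56.9, 52.7 and 58.1 CPM in the control libraries. The copy Gm10240 went the other way without passing, with 1.37, 4.24 and 1.44 CPM in the Zfhx3-CKO libraries, against 5.62, 4.98 and 6.11 CPM in the control libraries. The Rpl21 sum was 278, 231 and 257 CPM in the Zfhx3-CKO libraries, against 98.2, 95.4 and 99.7 CPM in the control libraries, and the groups were apart.

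The Rpl35a sum was 90.0, 81.5 and 110 CPM in the Zfhx3-CKO libraries, against 29.6, 29.5 and 34.0 CPM in the control libraries. Its largest copy, Gm10243, had only 4.97 to 7.64 CPM in the Zfhx3-CKO libraries and 8.14 to 9.28 CPM in the control libraries. As sums, the folds of Zfhx3-CKO over control were 2.42 for Rps18, 2.62 for Rpl21 and 3.04 for Rpl35a, against 5.53, 5.84 and 4.92 for the rows alone. All 3 were smaller with the copies included, and Rpl35a became the largest of the 3.

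**Figure D2:**
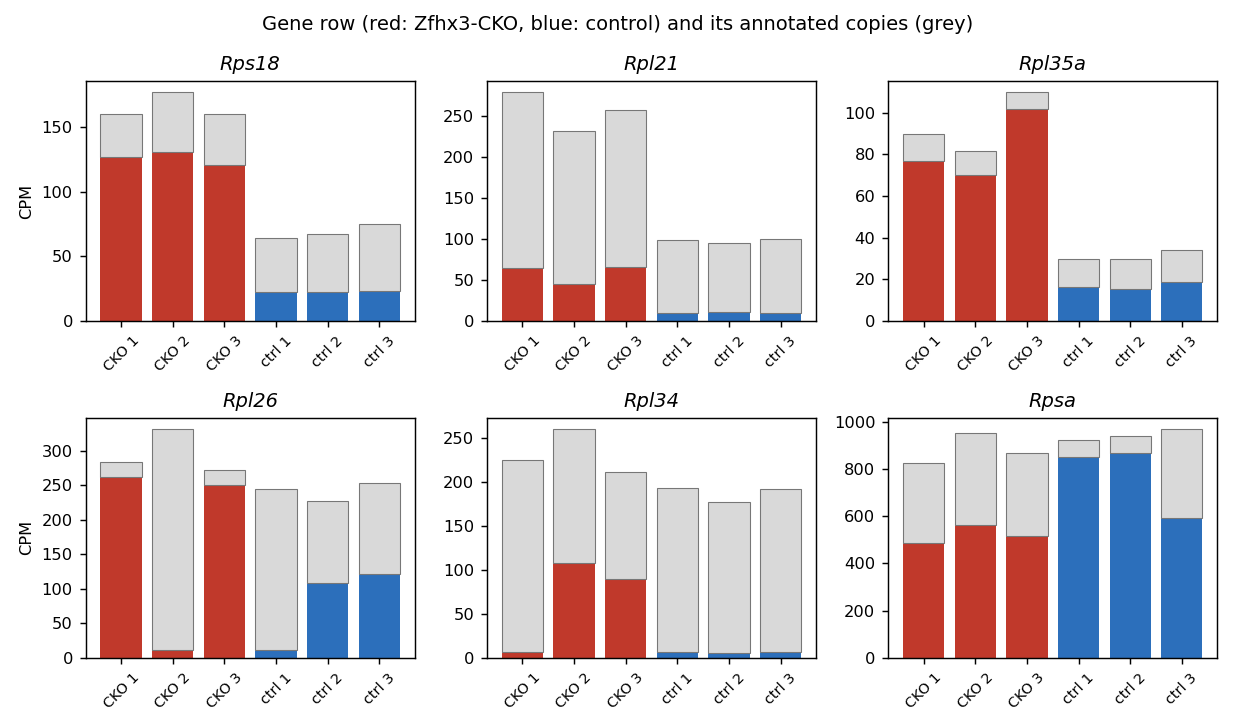
CPM of 6 ribosomal protein genes in each library, Zfhx3-CKO libraries in red and control libraries in blue, with the CPM of their annotated copies stacked above in grey. For Rps18, Rpl21 and Rpl35a the whole bar is far taller in every Zfhx3-CKO library. For Rpl26 and Rpl34 the whole bar is also taller in every Zfhx3-CKO library, but by less, and for Rpsa the groups overlap. For Rpl26, Rpl34 and Rpsa the coloured part differs between libraries of the same group.

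Some other rows differed between libraries of the same group. Rpl34, a large-subunit protein, had 6.22, 108 and 90.0 CPM in Zfhx3-CKO libraries 1, 2 and 3, against 6.33, 5.61 and 5.93 CPM in the control libraries. Zfhx3-CKO library 1 lay inside the control range although the row passed the threshold, at a log2 fold change of 3.51 ± 0.84 (SE). Its copy Rpl34-ps1 had 215, 141 and 112 CPM in the Zfhx3-CKO libraries and 183, 168 and 182 CPM in the control libraries, lowest where Rpl34 was high. The sum was 225, 260 and 211 CPM in the Zfhx3-CKO libraries, against 193, 177 and 192 CPM in the control libraries, a log2 fold change of 0.31 ± 0.09 (SE) that did not pass.

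Rpl26, a large-subunit protein that can also bind the p53 mRNA in human cells, showed the same exchange within both groups. It had 262, 10.8 and 250 CPM in Zfhx3-CKO libraries 1, 2 and 3, against 11.1, 108 and 121 CPM in control libraries 1, 2 and 3. Gm15772 had 18.4, 319 and 17.8 CPM in the Zfhx3-CKO libraries, against 232, 118 and 130 CPM in the control libraries, high where Rpl26 was low. Together with all copies they made 284, 331 and 272 CPM in the Zfhx3-CKO libraries, against 244, 228 and 254 CPM in the control libraries. Rpl26 thus held between 3.24% and 92.2% of the sum within the Zfhx3-CKO group alone.

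Rpsa, the laminin receptor and a protein of the small subunit, had 485, 564 and 515 CPM in the Zfhx3-CKO libraries, against 854, 868 and 595 CPM in the control libraries. Control library 3 lay closer to the Zfhx3-CKO libraries than to the other control libraries. Rpsa-ps10 had 331, 381 and 342 CPM in the Zfhx3-CKO libraries, against 57.8, 58.2 and 364 CPM in the control libraries. The row passed as lower at a log2 fold change of -0.57 ± 0.14 (SE), and the sum of 827, 955 and 869 CPM in the Zfhx3-CKO libraries, against 925, 940 and 971 CPM in the control libraries, did not.

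Rpl30 and Rpl3, both of the large subunit, each had 1 library apart from the rest. Rpl30 had 95.2, 176 and 156 CPM in the Zfhx3-CKO libraries, against 140, 145 and 153 CPM in the control libraries, while its copy Gm12191 had 76.0, 12.4 and 10.9 CPM in the Zfhx3-CKO libraries and 6.65 to 8.60 CPM in the control libraries. Rpl3, which sits close to the peptidyl transferase centre, had 252, 413 and 261 CPM in the Zfhx3-CKO libraries, against 299, 302 and 327 CPM in the control libraries. Its X-linked copy Rpl3-ps1 had 284, 191 and 304 CPM in the Zfhx3-CKO libraries and 301, 287 and 316 CPM in the control libraries, low in the library in which Rpl3 was high.

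Rpl29 was exchanged only in part. It had 6.03, 5.24 and 96.8 CPM in the Zfhx3-CKO libraries, against 5.92, 6.37 and 5.99 CPM in the control libraries. Only Zfhx3-CKO library 3 was high. Summed with its 43 copies it had 106, 110 and 173 CPM in the Zfhx3-CKO libraries, against 71.2, 77.0 and 81.4 CPM in the control libraries. Library 3 remained the highest, and no Zfhx3-CKO library overlapped the control libraries.

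Wide differences between libraries of the same group were also counted, whether or not a copy moved the other way. Among 75 canonical or paralog members of at least 20 CPM on average, 3 had their highest Zfhx3-CKO library at least 2-fold above their lowest, where 2.28% of 8512 tested genes of that level did, and 1 had such a gap among the control libraries, where 0.305% did. Rpl26, Rpl29 and Rpl34 were those of the Zfhx3-CKO group and Rpl26 that of the control group. Rpl29 and Rpl34 reached 20 CPM only through the Zfhx3-CKO libraries in which they were high, so their place in the count follows from those libraries. With their copies added, none of the 75 was 2-fold apart in either group. The widest sum then had a ratio of 1.63 among the Zfhx3-CKO libraries and 1.29 among the control libraries. For 10 members with at least 20 CPM summed, the row's part of the sum moved by over 20 percentage points across the 6 libraries: Rpl26, Rpl29, Rps18, Rpl35a, Rpl34, Rpl30, Rpsa, Rpl17, Rpl35 and Rpl3.

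**Figure D3:**
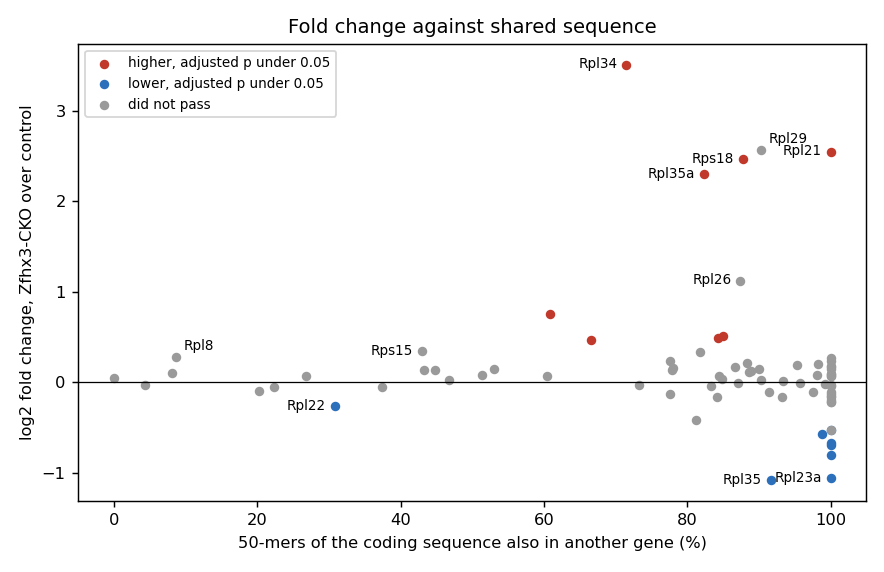
Log2 fold change of Zfhx3-CKO over control for the 79 tested canonical or paralog members against the percentage of 50-mers of their coding sequence that also occur in another annotated gene. Members that share under 60% of their 50-mers lie within 0.34 of 0 on the log2 scale, and every value beyond 1 in size belongs to a member that shares more than that.

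The members with most sequence of their own had small log2 fold changes. Of 15 tested members that shared under 60% of their 50-mers, 1 passed the threshold, and the largest log2 fold change in size was 0.34. Of 39 that shared 60% to under 100%, 9 passed, with a largest size of 3.51. Of 25 that shared all, 6 passed, with a largest size of 2.55. The share over all tested genes was 7.36%, so the count in the first class lies near it and is no result about those members. The median CPM of the tested members was 248, 209 and 190 in the 3 classes, and the lowest was 25.1, 7.07 and 10.1.

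Rpl4, a large-subunit protein that lines the exit tunnel, shared 20.2% and had 811, 908 and 819 CPM in the Zfhx3-CKO libraries, against 873, 911 and 923 CPM in the control libraries. The groups overlapped. Rps15 was at the upper edge of this class, with 355, 381 and 310 CPM in the Zfhx3-CKO libraries, against 256, 266 and 302 CPM in the control libraries and a log2 fold change of 0.34 ± 0.10 (SE) that did not pass.

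Rpl22, which shared 30.8%, was the one of the 15 that passed. It is a large-subunit protein that is dispensable for the ribosome in mice and can bind the mRNA of its paralog Rpl22l1. It had 157, 161 and 162 CPM in the Zfhx3-CKO libraries, against 192, 185 and 201 CPM in the control libraries, a log2 fold change of -0.27 ± 0.06 (SE). The paralog Rpl22l1 had 7.94, 6.99 and 6.77 CPM in the Zfhx3-CKO libraries, against 6.63, 6.50 and 7.60 CPM in the control libraries, with overlapping groups.

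Several members differed by smaller amounts that did not depend on their copies. The P stalk, which recruits translation factors to the large subunit, consists of Rplp0 and pairs of Rplp1 and Rplp2. Rplp1 had 394, 425 and 341 CPM in the Zfhx3-CKO libraries, against 221, 223 and 242 CPM in the control libraries, a log2 fold change of 0.76 ± 0.09 (SE). Rplp2 had 276, 280 and 235 CPM in the Zfhx3-CKO libraries, against 180, 185 and 205 CPM in the control libraries, a log2 fold change of 0.47 ± 0.09 (SE). Neither overlapped between the groups, while their partner Rplp0 did, with 1011, 1071 and 934 CPM in the Zfhx3-CKO libraries, against 911, 936 and 1028 CPM in the control libraries.

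Of the small subunit, Rps12 and Rps15a were higher. Rps12 had 239, 259 and 239 CPM in the Zfhx3-CKO libraries, against 161, 175 and 183 CPM in the control libraries, and the row Rps12-ps3 had 103, 109 and 92.7 CPM in the Zfhx3-CKO libraries, against 62.2, 64.2 and 75.3 CPM in the control libraries. Rps15a had 389, 430 and 363 CPM in the Zfhx3-CKO libraries, against 277, 273 and 294 CPM in the control libraries. The log2 fold changes were 0.51, 0.60 and 0.49, and no Zfhx3-CKO library of these rows fell within the control range.

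The lower rows included several of the shortest mRNAs. Rps27, a zinc-finger protein of the small subunit, had 68.7, 57.6 and 58.6 CPM in the Zfhx3-CKO libraries, against 108, 101 and 115 CPM in the control libraries. Its retrogene Rps27rt, whose aligned sequence is 100% identical to the Rps27 coding sequence, had 28.3, 26.8 and 25.4 CPM in the Zfhx3-CKO libraries, against 38.5, 37.4 and 42.1 CPM in the control libraries. Parent and retrogene were lower together, and their sum with the other copies had a log2 fold change of -0.73 ± 0.08 (SE).

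Rps29, another small zinc-binding protein of the small subunit, had 48.1, 38.2 and 38.6 CPM in the Zfhx3-CKO libraries, against 66.0, 62.3 and 69.6 CPM in the control libraries. Rpl38, whose loss in mice disturbs the patterning of the axial skeleton, had 41.7, 35.5 and 31.7 CPM in the Zfhx3-CKO libraries, against 48.4, 51.6 and 57.1 CPM in the control libraries. Rpl19, a longer large-subunit mRNA, had 58.5, 56.9 and 52.1 CPM in the Zfhx3-CKO libraries, against 86.6, 90.3 and 92.9 CPM in the control libraries. In each of these the groups were apart, and the log2 fold changes were -0.66, -0.53 and -0.69.

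Rpl35 and Rpl23a, both beside the exit of the large subunit's tunnel, were lower only as single rows. Rpl35 had 6.96, 7.36 and 6.51 CPM in the Zfhx3-CKO libraries, against 13.7, 16.4 and 14.0 CPM in the control libraries, and its sum had log2 fold change -0.12 ± 0.09 (SE). Rpl23a had 7.74, 6.20 and 5.69 CPM in the Zfhx3-CKO libraries, against 12.9, 14.0 and 14.0 CPM in the control libraries, and its sum had log2 fold change 0.04 ± 0.08 (SE). Neither sum passed.

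The pseudogene-named row Rpl7a-ps5 had 1.18, 1.22 and 1.38 CPM in the Zfhx3-CKO libraries, against 2.93, 3.28 and 3.05 CPM in the control libraries, and passed as lower. Its parent Rpl7a, a large-subunit protein, had 280, 315 and 263 CPM in the Zfhx3-CKO libraries, against 261, 283 and 302 CPM in the control libraries, with overlapping groups.

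Which rows passed depended in part on single libraries, while the direction of each held. Leaving out control library 1 left Rpl34, Rpsa, Rplp2, Rps15a, Rps12-ps3, Rps29, Rpl38, Rpl22, Rps27rt and Rpl7a-ps5 short of the threshold, with log2 fold changes of 3.56, -0.48, 0.44, 0.48, 0.55, -0.66, -0.58, -0.26, -0.56 and -1.32. Leaving out control library 2 did so for the same rows apart from Rps29, at 3.48 for Rpl34 and -0.47 for Rpsa. Without control library 3, Rpl34, Rpl38 and Rpl22 did not pass, at 3.499, -0.46 and -0.23. Without Zfhx3-CKO library 1, Rpsa, Rplp2, Rps12-ps3, Rpl22 and Rpl7a-ps5 did not, at -0.51, 0.44, 0.59, -0.25 and -1.24. Without Zfhx3-CKO library 2, Rpl34 and Rpl22 did not, at 3.01 and -0.27. Fits with 2 control libraries called 289 to 726 genes over the whole table, against 1218 with all. Other settings also ended calls. Among them were Rpl34 (adjusted p = 0.147) and Rpsa (adjusted p = 0.0725) under limma-trend on log2(FPKM + 1), and Rpl22 (adjusted p = 0.0513) under edgeR without a count filter. A replicate block, described at the end, left fewer members past the threshold as well.

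With all copies added, 80 members could be tested as sums; 8 were higher and 6 lower, or 17.5%, beside 7.20% of the 16340 rows of that fit. The sums higher were those of Rpl35a, Rpl21, Rps18, Rpl29, Rplp1, Rps12, Rps15a and Rplp2, and those lower were Rps27, Rpl19, Rps29, Rpl38, Rps28 and Rpl22. Of the 16 canonical or paralog rows past the threshold, 12 were past it as sums in the same direction. The SD of the log2 fold change was 0.38 over the sums, about that of single tested genes at or above the members' lower quartile of 63.4 CPM, at 0.37 over 4300 genes. The 3 sums over 1 in size were Rps18, Rpl21 and Rpl35a, and the next was Rpl29 at 0.77 ± 0.18 (SE).

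The sums of members with the shortest coding sequences were mostly lower. Of 9 sums whose member has a coding sequence under 300 bases, 7 had a log2 fold change below 0, 4 passed as lower and none as higher, with a median of -0.42, where 3.26% of all rows of that fit passed as lower and 3.94% as higher. Of 71 with longer coding sequences, 26 were below 0, 2 passed as lower and 8 as higher, with a median of 0.07. The 4 short ones that passed were Rps27, Rps28, Rps29 and Rpl38. Among the longer ones direction was not compared with length. The 8 higher sums had coding sequences of 333 to 483 bases, and the 2 lower were Rpl22, with 387, and Rpl19, with 591. The longest, that of Rpl4, had 1260 bases. The split at 300 bases was not among the planned comparisons. Whether fragment length or RNA quality differed between the libraries was not tested.

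The X-linked members are set apart because sex divides the libraries as genotype does. Rpl10, a joining protein of the large subunit, had 337, 374 and 354 CPM in the Zfhx3-CKO libraries, against 387, 402 and 426 CPM in the control libraries. Rps4x, which escapes X inactivation in humans but not in mice, had 578, 655 and 574 CPM in the Zfhx3-CKO libraries, against 515, 517 and 601 CPM in the control libraries. The log2 fold changes of Rpl10, Rpl39, Rps4x and Rpl36a were -0.19, -0.17, 0.15 and 0.17, and none of the 4 passed.

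Rpl5 and Rpl11 lay near the centre of the set. Rpl5 averaged 440 ± 21.4 CPM in the Zfhx3-CKO libraries and 480 ± 22.8 CPM in the control libraries, and Rpl11 averaged 247 ± 22.1 CPM in the Zfhx3-CKO libraries and 233 ± 18.3 CPM in the control libraries (SD, n = 3 each). Rps6, the protein that S6 kinases phosphorylate, had 481, 540 and 471 CPM in the Zfhx3-CKO libraries, against 490, 493 and 541 CPM in the control libraries. Rps14 and Rps19, whose human genes are linked to the 5q- syndrome and to Diamond-Blackfan anaemia, had log2 fold changes of 0.08 ± 0.08 and 0.15 ± 0.10 (SE). The groups of Rpl5, Rpl11, Rps6, Rps14 and Rps19 overlapped.

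By FPKM, the authors' level per gene length, the highest members were Rpl8, Rplp1, Rplp0, Rps24 and Rps15. Rpl8 averaged 699 ± 37.9 FPKM in the Zfhx3-CKO libraries and 579 ± 55.4 FPKM in the control libraries, and Rplp1 averaged 772 ± 88.0 FPKM in the Zfhx3-CKO libraries and 458 ± 26.2 FPKM in the control libraries (SD, n = 3 each). At the low end of the whole set were Rpl13a-ps1, Rpl13-ps3, Rpl39l, Rpl3l and Rpl36al, all at or under 0.182 FPKM over the 6 libraries. Rpl24 is an essential large-subunit protein, yet its row averaged 0.516 ± 0.310 FPKM in the Zfhx3-CKO libraries and 0.393 ± 0.0809 FPKM in the control libraries. Its 50-mers were 99.3% shared. Its only copy of at least 1 CPM on average, Gm12254, averaged 2.224 CPM in the Zfhx3-CKO libraries and 3.195 CPM in the control libraries. Where other reads of Rpl24 were counted, if anywhere, was not tested. The FPKM values also depend on the gene lengths behind them, which, worked back from counts and FPKM, were 2491 bases for Rps18 against a coding sequence of 459 bases.

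Apart from the outlying rows, the members moved together between libraries of the same group. Control library 3 was the highest control library for 73 of the 79 tested canonical or paralog members, or 92.4%, against 39.4% of all tested genes and 64.9% of mitochondrial ribosomal protein genes. All 15 members with under 60% of their 50-mers shared had it highest. Among the Zfhx3-CKO libraries, library 2 was highest for 53 of the 79, or 67.1%, against 37.3% of all tested genes and 54.5% of mitochondrial ribosomal protein genes. Library 3 was lowest for 59 of the 79, or 74.7%, against 39.7% of all tested genes and 76.6% of mitochondrial ribosomal protein genes.

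The size of this movement was small. Relative to the control mean, the members' median log2 CPM was 0.08, 0.14 and -0.07 for Zfhx3-CKO replicates 1 to 3, against -0.07, -0.04 and 0.10 for control replicates 1 to 3. The 2 groups overlapped, so the median difference between groups is no larger than the spread between libraries of one group. The mitochondrial ribosomal protein genes were at 0.05, 0.10 and -0.11 in the Zfhx3-CKO libraries, against -0.06, -0.01 and 0.10 in the control libraries, in the same order. Summed microglia markers were also highest in control library 3 among the controls, at 460 CPM against 324 and 315 CPM in control libraries 1 and 2, and summed erythroid markers were highest in Zfhx3-CKO library 2, at 2560 CPM against 708 and 817 CPM in Zfhx3-CKO libraries 1 and 3. Summed proliferation genes stood in the members' order, at 4151, 4550 and 3394 CPM in Zfhx3-CKO libraries 1 to 3. In control libraries 1 to 3 they were at 2918, 3081 and 3146 CPM. Summed cortical excitatory markers and summed endothelial and pericyte markers did not follow that order. The part of any of these lists in the movement was not tested.

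**Figure D4:**
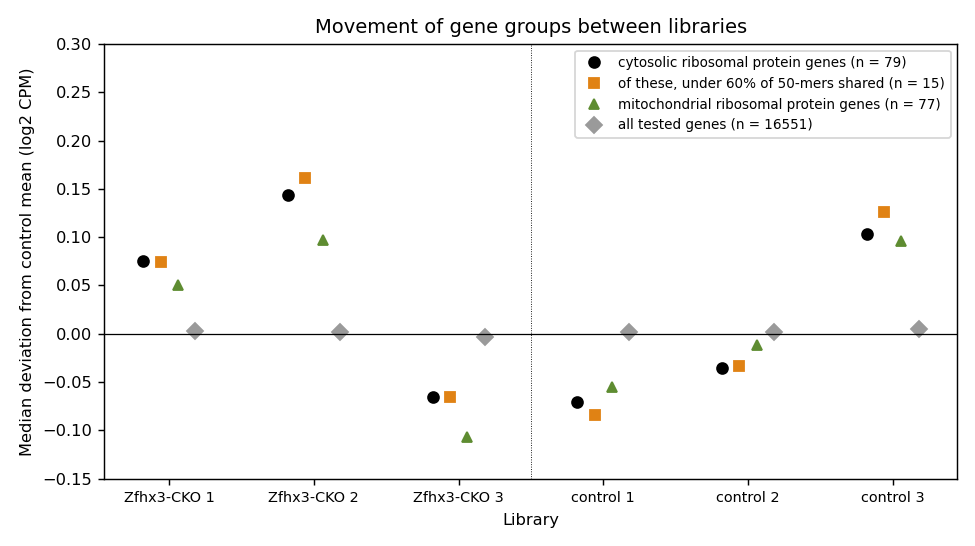
Median deviation of log2 CPM from the mean of the control libraries, for each library, of 79 cytosolic ribosomal protein genes, the 15 of them with under 60% of their 50-mers shared, 77 mitochondrial ribosomal protein genes and all 16551 tested genes. The ribosomal groups stand highest in Zfhx3-CKO library 2 and control library 3 and low in Zfhx3-CKO library 3 and control library 1, while all tested genes stay near 0.

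Of 18 other genes with TOP RNAs, among them translation factors, chaperones such as Npm1 and the non-coding Gas5, 3 passed the test, where 7.36% of all tested genes did. Eif3f, a subunit of an initiation factor, rose to 325 ± 10.4 CPM in the Zfhx3-CKO libraries, against 201 ± 24.96 CPM in the control libraries, and Eef1g and Btf3 fell by 0.30 and 0.34 on the log2 scale. The other 15 did not pass, and the list's median was -0.08. Of 77 mitochondrial ribosomal protein genes, 1 was higher and none lower.

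Of 44 genes of ribosome biogenesis, 3 were higher and none lower, where 3.87% and 3.49% of all tested genes were: Noc2l, a nucleolar protein, Ubtf, which activates RNA polymerase I, and Rrs1, needed for the large subunit. Rrs1 averaged 41.0 ± 6.70 CPM in the Zfhx3-CKO libraries and 24.8 ± 2.96 CPM in the control libraries (SD, n = 3 each). Of 16 regulators of ribosomal protein genes, Tsc1, an inhibitor of mTOR, was higher by 0.30 on the log2 scale and Eif4ebp2, a translation repressor that mTOR phosphorylates, fell by 0.24; Larp1, Mtor, Myc and the others did not pass.

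Of 15 targets of p53, Cdkn1a, Phlda3 and Aen were higher and Plk2 lower, where 3.87% and 3.49% of all tested genes were. Cdkn1a, the p21 inhibitor of cyclin-dependent kinases, averaged 39.2 ± 1.74 CPM in the Zfhx3-CKO libraries and 24.5 ± 3.24 CPM in the control libraries (SD, n = 3 each). Of 15 proliferation genes, 5 were higher and none lower, beside the same shares of all tested genes. Mki67, among the 5, averaged 794 ± 109 CPM in the Zfhx3-CKO libraries and 519 ± 35.3 CPM in the control libraries (SD, n = 3 each). The medians of both lists were 0.25 and 0.32 on the log2 scale, beside 0.07 for the ribosomal protein genes and 0.00 for all tested genes.

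Gene starts of the members were compared in RefSeq windows of GRCm38.p6, which matched 63 of the 83 canonical or paralog members. A run of at least 6 pyrimidines at the annotated start was present for 25 of these genes, or 39.7%, against 16.7% of all 27025 genes with a window and 14.7% of mitochondrial ribosomal protein genes. The letters CCGGAAG, the core bound by ETS-family factors such as Gabpa, occurred on either strand in 41.3% of members and 9.93% of all genes, and also in 36.8% of mitochondrial ribosomal protein genes. The letters TATAAA occurred in 11.1% of members and 15.7% of all genes. These matches describe the windows only.

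The starts of 4 genes are printed to set rows that passed as higher beside one that passed as lower. Of these, Rpl34 passed only as a single row and not as a sum with its copies. Each shows 30 bases before the annotated start and 10 after, with the longest pyrimidine run at or within 2 bases of the start in capitals. Where a gene has several annotated starts, the one with the longest run was taken, as for Rpl35a (3 starts) and Rpl34 (2 starts). Rps18 is at chr17:33955656-33955695 on the minus strand and Rpl35a at chr16:33056452-33056491 on the plus strand. Rpl34 is at chr3:130730328-130730367 and Rps27 at chr3:90213639-90213678, both on the minus strand.
Rps18: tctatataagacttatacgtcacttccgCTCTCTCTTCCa
Rpl35a: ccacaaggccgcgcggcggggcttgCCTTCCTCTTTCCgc
Rpl34: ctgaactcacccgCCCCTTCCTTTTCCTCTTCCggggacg
Rps27: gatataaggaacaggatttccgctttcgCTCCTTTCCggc
All 4 hold a pyrimidine run, of 11 bases in Rps18, 13 in Rpl35a, 20 in Rpl34 and 9 in Rps27. Taken in the same way, the run was 2 bases long in Rps12, which passed as higher. It was 4 in Rpl22 and 1 in Rpsa, which passed as lower, Rpsa only as a single row.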

How the data were processed

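RNA-seq libraries of mouse LGE at embryonic day 16.5 (3 Zfhx3-CKO, 3 control) were analysed from the deposited tables. Tools named in the submitters' processing notes, in no stated order, are HISAT2, StringTie, edgeR and bcl2fastq 2.17.1.14, with mm10 and GRCm38.p4 as builds. The deposited counts are whole numbers per gene with no normalisation, per the file headers. FPKM values, per the file headers, are the authors' counts per gene length and library total. The authors' log2 fold changes and p-values are in the same deposited table, per the file headers, and its headers name no test.

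Counts were tested with edgeR 4.0.16 in R 4.3.3 (quasi-likelihood test, TMM factors 0.992 to 1.008, filterByExpr with a minimum count of 10, 16551 genes kept, Benjamini-Hochberg adjustment, threshold 0.05, no covariate besides group). CPM are counts scaled by library total and TMM factor. The SE comes from the quasi-likelihood F statistic. Log2 CPM used a prior count of 2. On counts simulated from the control means with a fixed variation between libraries, the test recovered most 2-fold changes before it was used. The wider spread among the Zfhx3-CKO libraries was not simulated, and recovery of smaller changes was not required.

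Copies were pseudogene rows, pseudogene-named rows and predicted coding rows whose name or best UniProt match in the table is the member's. Copy sums were tested in a fit of their own. Replicates differed by more than sampling noise in every pair within a group. Genes named are Rps18, Rpl21, members past the threshold, the largest and smallest changes, the highest and lowest by FPKM, the X-linked members, paralogs and a few members of known role. The 10 members with a moving part of the sum, and Rpl24 and Rpl4, were named after their values were seen. The members and the lists were chosen with earlier results of these data known.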

Additional observations from a re-analysis of the deposited data

How the results depend on the processing

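Rps18, Rpl21, Rpl35a, Rplp1, Rps12, Rps27 and Rpl19 kept their direction and stayed past the threshold under every setting tried: RLE factors, library totals only, factors computed without the members and their copies, no or a strict count filter, DESeq2 1.42.0, limma-trend on log2(FPKM + 1), a replicate block, members summed with copies, no X and Y genes, and each library left out. Summing with copies turned Rpl23a round, to 0.0429 on the log2 scale, and left 6 members lower. Without a count filter 1861 genes were called, in place of 1218.

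The main fit did not pair libraries by replicate number. Deviations of same-numbered libraries correlated at -0.035, -0.081 and -0.251. No other pairs were computed, so these values cannot decide whether the libraries were paired. With the replicate block 5 members were higher, 5 lower and 312 genes called. With 1 library left out, 5 to 14 members were higher, 4 to 10 lower and 289 to 2096 genes called, and the members' median log2 fold change was 0.01 to 0.12. A fit without Zfhx3-CKO libraries 1 and 3, those with high cortical markers, was chosen after seeing the data. It assumes that the lone library varies like the controls, so its calls are not given. Apart from what the settings change by construction, the cause of these shifts was not tested. Low counts of their own rows left 6 of the 94 members untested.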
